A study of Mus musculus with 108 samples.

Results

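Flt1, which encodes vascular endothelial growth factor receptor 1, was followed in single mouse oocytes together with Kdr (receptor 2), the co-receptor Nrp1, and the ligands Vegfa, Vegfb and Pgf. Flt1 was chosen by its measured level, which was low in Exosc10-deficient oocytes of these same libraries, so its difference between genotypes is described here without a test, and the other genes were listed by their role beside it. All 6 genes were found by Ensembl ID among the 55573 gene rows of the deposited count files, and 86 single-oocyte gene libraries were read. Of the 6, Nrp1 and Flt1 had enough counts to be tested in all 5 comparisons of genotype, Kdr in 4 of them, and Vegfa, Vegfb and Pgf in none.

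The oocytes came from females with an oocyte-specific knockout (cKO) of Exosc10, which encodes an RNA-degrading subunit of the exosome complex, and from females labelled control. The labels give neither the driver of the recombinase, nor the strain, nor the females' age. Oocytes were taken at GV (germinal vesicle intact, before meiotic resumption), at GV3h (GV oocytes after 3 h of culture in M2 medium) and at MII (ovulated eggs from the oviduct, arrested at the second metaphase). In polyA libraries there were 15 cKO against 7 control oocytes at GV, 11 against 8 at GV3h, and 15 against 8 at MII. RiboMinus libraries, made without selection for polyadenylated RNA, numbered 7 against 8 at GV and 4 against 3 at MII. Each female gave oocytes of 1 stage and 1 genotype. The numbers of cKO and control females were 2 and 2 at polyA GV, 3 and 3 at GV3h and MII, 2 and 2 at RiboMinus GV, and 2 and 1 at RiboMinus MII. Tests treat the oocyte as the replicate. Oocytes of a female are not independent, so these p-values can be too small, and outcomes from counts summed per female are given beside the main results. These sums called 1 of 18004 genes at polyA GV and 3 of 20094 at RiboMinus GV, while the polyA GV3h, polyA MII and RiboMinus MII sums called 6681 of 16844, 2522 of 13813 and 1703 of 22583 genes. At RiboMinus MII the summed control arm is 1 female, which is assumed to vary like the others. With so few calls in all at the GV stages, a call lost there says nothing about the size of a difference.

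The receptors of this family are membrane proteins with an extracellular ligand-binding part and an intracellular tyrosine kinase. Kdr is the main signalling receptor for VEGF-A in endothelial cells, while Flt1 binds VEGF-A, VEGF-B and placental growth factor (Pgf) with high affinity, has weak kinase activity, and is also made as a soluble form that holds ligand away from Kdr. Nrp1 is a co-receptor that binds VEGF isoforms as well as semaphorins. In the ovary these genes are best known from blood vessels around growing follicles and in the corpus luteum.

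The promoters of Flt1 and Kdr are shown because transcripts of both receptor genes were low in the same oocytes. All 6 genes were present in the RefSeq promoter table (GRCm38.p6), which gives 250 bases before and 50 bases after each start. Capitals mark TGACGTCA, the cAMP response element. They also mark GGAA, the core of ETS sites, on either strand. The last marked motif is TATAAA, the TATA box. The Flt1 promoter lies at chr5:147725962-147726261 and the Kdr promoter at chr5:75978406-75978705, both on the minus strand.
Flt1: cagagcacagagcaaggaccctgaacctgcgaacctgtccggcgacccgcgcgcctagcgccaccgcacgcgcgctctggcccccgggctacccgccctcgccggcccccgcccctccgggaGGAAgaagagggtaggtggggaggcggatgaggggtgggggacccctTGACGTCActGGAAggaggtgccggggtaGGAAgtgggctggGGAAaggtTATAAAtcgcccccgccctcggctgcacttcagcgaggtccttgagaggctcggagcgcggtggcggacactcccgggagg
Kdr: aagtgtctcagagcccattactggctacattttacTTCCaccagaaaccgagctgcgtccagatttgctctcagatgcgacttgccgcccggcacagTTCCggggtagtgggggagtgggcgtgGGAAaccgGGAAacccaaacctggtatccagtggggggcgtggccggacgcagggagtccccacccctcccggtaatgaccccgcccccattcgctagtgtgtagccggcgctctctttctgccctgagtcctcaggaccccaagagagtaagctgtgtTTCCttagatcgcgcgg
The Flt1 window held 1 TGACGTCA, whose first base lies 81 bases before the start, 1 TATAAA at 31 bases before the start, and 4 GGAA at 128, 71, 52 and 39 bases before the start. The Kdr window held 5 GGAA, counting both strands, and neither of the other letters. On either strand, TGACGTCA occurred in 1.79% of the 32851 promoters of this length, TATAAA in 13.6% and GGAA in 96% of them. GGGCGG (GC box) was found 3 times in the Flt1 window and 2 times in that of Kdr, against 35.7% of promoters with at least 1, and ACGTG (core of the hypoxia response element) was in neither, against 19.6%. No match overlapped another in either window. These are matches of letters, and no file here measures binding.

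In the GENCODE M21 annotation of GRCm38, the build named for the alignments, Flt1 (ENSMUSG00000029648) spans chr5:147561604-147726011 on the minus strand and overlaps no other annotated gene. RefSeq places 1 gene within Flt1, whose part in the Flt1 reads was not tested. In GENCODE, Flt1 has 6 transcripts, of which 2 are coding. Flt1-202 has 30 exons and 1333 codons, whereas Flt1-203 has 13 exons and 688 codons and ends within the gene at 147635159, as a transcript for a shorter protein. The counts are per gene, so the full-length and the shorter transcript cannot be told apart. In the same annotation Kdr (ENSMUSG00000062960, chr5:75932827-75978458, minus strand) overlaps no other gene, and Nrp1 (ENSMUSG00000025810, chr8:128358604-128503363, plus strand) overlaps 1 microRNA gene, Mir1903.

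Before the values of single genes, the libraries were set against their labels. Total gene counts per library ranged from 4638718 to 8735914 in polyA and from 12319658 to 62675760 in RiboMinus libraries. The files hold 0 spike-in (ERCC) rows, so each level is relative to the other RNA of its library. Exosc10 itself was far lower in every cKO oocyte: its highest cKO value in any group was 8.29 CPM (counts scaled to a common library size by TMM within a library type), and its lowest control value was 43.0 CPM. Correlated over all genes with a mean above 5 CPM, every control library was nearer to the controls of its stage. Of the cKO libraries, 2 of 7 at RiboMinus GV, 1 of 15 at polyA GV and 2 of 11 at GV3h were nearer to the controls than to the other cKO libraries. The 2 RiboMinus GV oocytes, numbers 2 and 3 of female V1126, stood clearly on the control side, with mean correlations of 0.956 and 0.965 with controls against 0.898 and 0.860 with other cKO oocytes. In the other 5 cKO oocytes of that group the mean correlation was 0.811 to 0.873 with controls and 0.915 to 0.935 with cKO oocytes. Exosc10 in the 2 oocytes was nonetheless 8.29 and 4.198 CPM, against 94.1 to 162 CPM in controls. RiboMinus results on the receptors, the co-receptor and the lists that use GV cKO oocytes are therefore given with and without them, as an alternative chosen after seeing the data. In the 3 polyA libraries the difference between both mean correlations was small, for example 0.915 against 0.910 in oocyte 3 of female V888 at GV.

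Flt1 was readily detected in control oocytes and low in almost every cKO oocyte. In polyA GV controls it measured 12.8 CPM at the lowest, 32.1 at the median and 38.3 at the highest, and in polyA GV cKO oocytes 0.123, 1.66 and 8.03 CPM. The groups did not overlap, and the median was 19.3 times higher in controls. The highest cKO value, 8.03 CPM, belonged to oocyte 3 of V888, the polyA GV cKO library that lay nearer to controls over all genes, and the next was 4.75 CPM. The lowest values rested on single reads, since 3 of the cKO oocytes held 1 count each.

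After 3 h of culture the picture was the same. Flt1 in GV3h controls ranged from 12.2 to 58.5 CPM with a median of 44.3, and in GV3h cKO oocytes from 0.123 to 3.56 CPM with a median of 1.23. No cKO oocyte reached the lowest control, and the median ratio was 36.1. At MII, Flt1 was higher in both genotypes: controls lay between 71.5 and 201 CPM (median 102) and cKO eggs between 1.15 and 14.5 CPM (median 10.0), again without overlap, with a median ratio of 10.2. Log2 fold changes of cKO against control, fitted with edgeR's quasi-likelihood model (the source of every adjusted p here, with Benjamini-Hochberg adjustment over all genes and 0.05 as threshold), were -3.66 ± 0.50 (SE) at GV, -4.81 ± 0.39 at GV3h and -3.85 ± 0.27 at MII. These values chose the gene and carry no test.

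**Figure D1:**
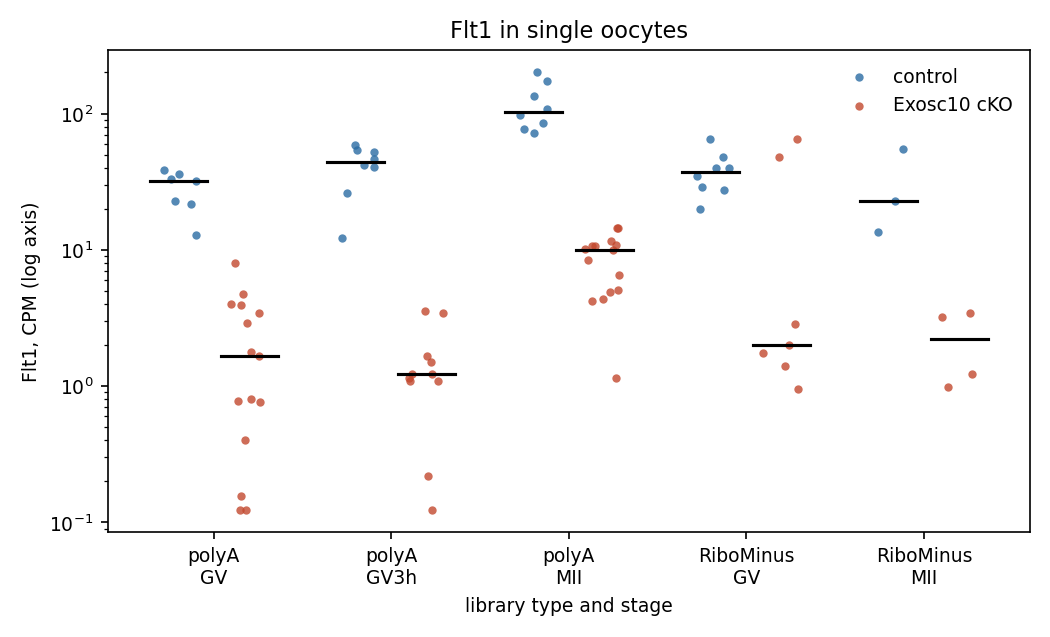
Flt1 in each oocyte as CPM on a log axis, by library type and stage. Points are oocytes (blue, control; red, Exosc10 cKO) and black lines are medians. PolyA groups do not overlap at any stage, and in RiboMinus GV 2 cKO oocytes lie at 48.1 and 64.7 CPM among the controls.

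RiboMinus libraries, which do not depend on a poly(A) tail, showed low Flt1 in most cKO oocytes as well. At GV the controls ranged from 19.9 to 64.95 CPM (median 37.4) and the cKO oocytes from 0.957 to 64.7 CPM (median 1.99). The groups overlapped through the 2 oocytes of V1126 described above, with 64.7 and 48.1 CPM, whereas the third oocyte of that female had 1.396 CPM and the 4 of V1131 had 0.957 to 2.88 CPM. The fitted log2 fold change was -1.14 ± 0.79 (SE) with all 7 cKO oocytes and -4.42 without those 2. Leaving out 1 female moved it from -4.33 (without V1126) to 0.00 (-0.002155, without V1131), so the RiboMinus GV value depends on which female is kept.

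At RiboMinus MII the 4 cKO eggs had 3.45, 0.993, 1.22 and 3.20 CPM and the 3 control eggs, all of female V1145, had 54.5, 22.9 and 13.4 CPM. The groups did not overlap, and the fitted log2 fold change was -3.70 ± 0.61 (SE). The median was lower in cKO oocytes in all 5 sets of library type and stage, and the 2 oocytes of V1126 were the only cKO libraries at or above the lowest control of their set. Markers of other cell types moved both ways at RiboMinus MII. The 9 markers of theca and stroma summed to 7.47 to 47.4 CPM in cKO and 0.863 to 3.77 CPM in control eggs, endothelial markers were also higher in cKO eggs, and granulosa and cumulus markers were lower. The 8 immune markers overlapped, at 6.18 to 117 CPM in cKO eggs and 7.22 to 11.4 CPM in controls. Their part in the RiboMinus MII differences was not tested.

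**Figure D2:**
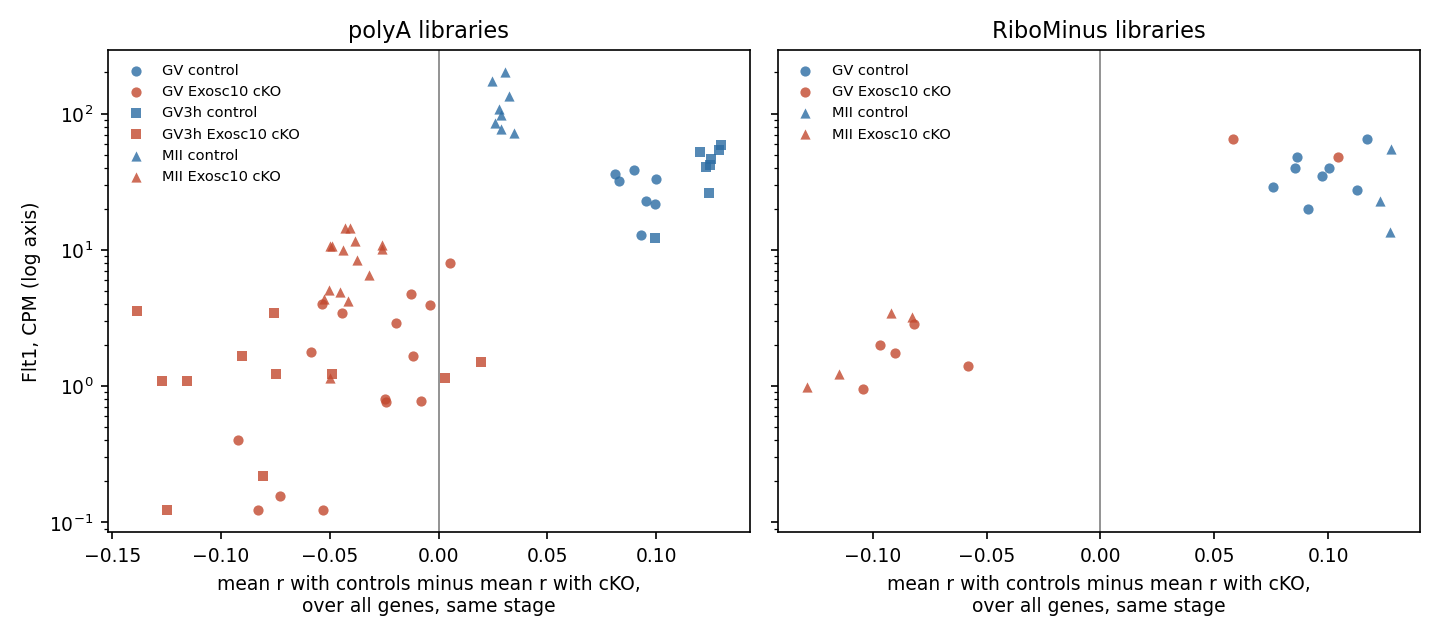
Flt1 (CPM, log axis) against the difference between an oocyte's mean correlation with controls and with cKO oocytes of its stage over all genes, for polyA (left) and RiboMinus libraries (right). Points are oocytes, coloured by genotype. Oocytes right of 0 are nearer to controls. The 2 RiboMinus GV cKO oocytes to the right of 0 have 48.1 and 64.7 CPM, and the 3 polyA cKO oocytes there have 8.03, 1.51 and 1.15 CPM.

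Taking the female as the unit, mean Flt1 was 35.5 and 22.6 CPM in the 2 polyA GV control females and 2.04 and 2.35 CPM in the 2 cKO females. At GV3h the control females averaged 55.4, 44.3 and 33.2 CPM and the cKO females 1.30, 2.03 and 1.25 CPM. At MII the control females averaged 188, 97.5 and 91.6 CPM and the cKO females 13.0, 2.68 and 8.74 CPM. Female means did not overlap between genotypes at any polyA stage, and the spread between females of a genotype was widest, in CPM, at MII. In RiboMinus GV the means of V1126 (38.04 CPM, with its 2 oocytes) and V1131 (1.89 CPM) lay on either side of the control female V1132 (29.0 CPM). With counts summed per female the fitted log2 fold changes were -3.80, -4.92 and -4.01 at the 3 polyA stages, -1.22 at RiboMinus GV and -3.51 at RiboMinus MII.

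**Figure D3:**
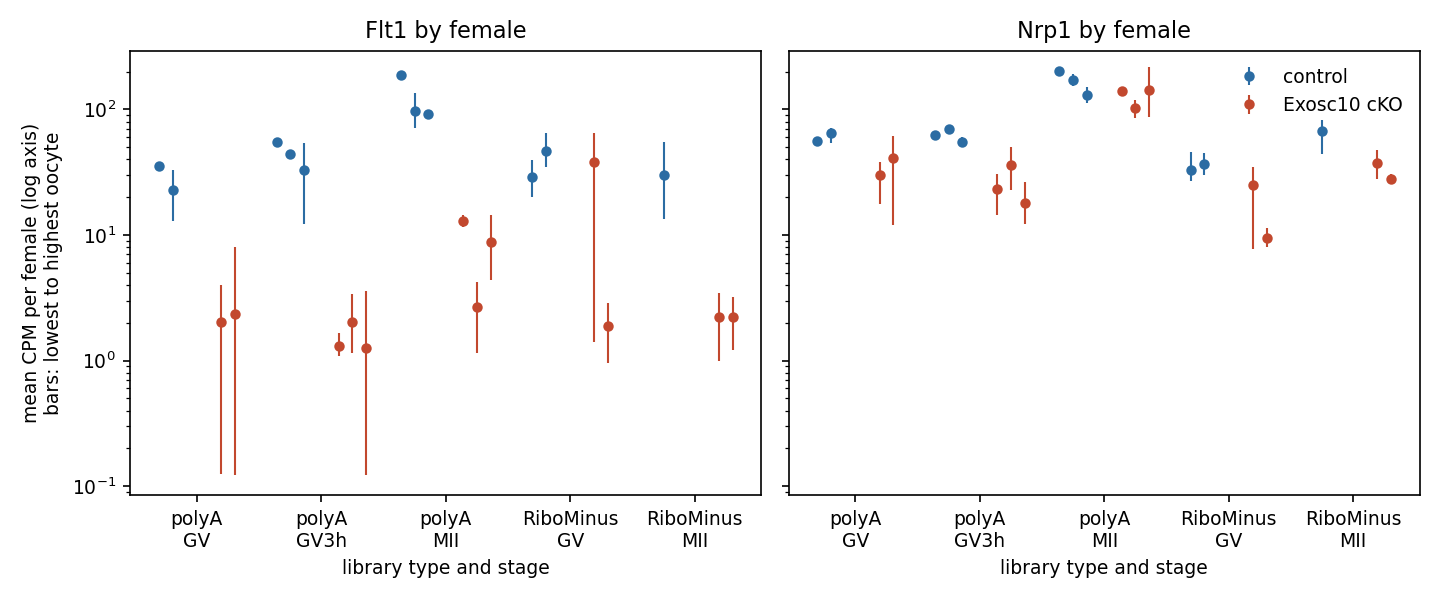
Mean CPM per female (points) with the lowest and highest oocyte of that female (bars) for Flt1 (left) and Nrp1 (right) on a log axis, by library type, stage and genotype. Flt1 means of cKO females stay at or under 13.0 CPM except for the RiboMinus GV female V1126, at 38.04 CPM.

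Across stages Flt1 rose to MII in polyA libraries of both genotypes, which is a comparison that did not choose the gene. In control oocytes the order of medians was GV (32.1 CPM), GV3h (44.3) and MII (102), where the ranges of GV and GV3h overlapped and every MII egg lay above every GV3h oocyte. The edgeR log2 fold change from GV to MII was 2.07 ± 0.26 (SE, adjusted p = 1.1e-06; adjusted p = 0.0025 with counts summed per female), among 63.4% of all genes called in that comparison. In cKO oocytes the order was GV3h (1.23 CPM), GV (1.66) and MII (10.0), and the edgeR change from GV to MII was 1.89 ± 0.44 (SE, adjusted p = 0.00026; adjusted p = 0.055 with counts summed per female), where 74.8% of genes were called.

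From GV to GV3h Flt1 did not pass the test in either genotype. The log2 fold change was 0.55 ± 0.26 (SE, edgeR adjusted p = 0.46) in controls, where 0.519% of genes were called, and -0.60 ± 0.55 (adjusted p = 0.68) in cKO oocytes, where 0.602% were called. The interaction of stage and genotype, which asks whether the change differed between genotypes, was -1.15 ± 0.68 (SE, edgeR adjusted p = 0.63) for GV to GV3h and -0.16 ± 0.60 (adjusted p = 0.90) for GV to MII. For these interactions 0.0959% and 14.7% of genes were called. The Flt1 interactions, here and in RiboMinus libraries, are made of the genotype differences that chose the gene. They therefore cannot decide whether the stage change differed between genotypes, and no conclusion is drawn from them.

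In RiboMinus libraries Flt1 did not rise. In controls the change from GV to MII was -0.33 ± 0.34 (SE, edgeR adjusted p = 0.50), among 30.9% of genes called. It depended on single libraries: without egg 2 of V1145 it was -1.07 with adjusted p = 0.030, and without female V1133 it was 0.044 (adjusted p = 0.95). In cKO oocytes it was -2.96 ± 1.26 (adjusted p = 0.12, 16.1% of genes called) with all oocytes and 0.33 (adjusted p = 0.71) without the 2 oocytes of V1126. The interaction likewise turned from -2.61 ± 1.24 (SE, edgeR adjusted p = 0.15, 14.8% of genes called) to 0.65 (adjusted p = 0.47) without them.

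The control change from GV to MII differed between the library types in a comparison added after seeing the data. In 1 edgeR fit over the control oocytes of both types, the polyA change exceeded the RiboMinus change by 2.56 ± 0.48 on the log2 scale for Flt1 (SE, adjusted p = 4e-05; adjusted p = 0.0068 with counts summed per female), where 49.6% of genes were called. For Nrp1 the excess was 0.68 ± 0.24 (adjusted p = 0.021), which did not pass with counts summed per female (adjusted p = 0.13), with library totals in place of TMM (0.19, adjusted p = 0.52) or with DESeq2 (0.55, adjusted p = 0.0501). For Kdr it was 2.14 ± 1.20 (adjusted p = 0.14). Different females gave the oocytes of each library type and stage, and the RiboMinus MII controls are 1 female, so female and library type cannot be told apart.

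Kdr, the other receptor, was weakly expressed and lower in cKO oocytes. In polyA GV controls its values ran from 1.16 through a median of 2.37 to 5.81 CPM, and in cKO oocytes from 0 through a median of 0 to 1.90 CPM, with 10 of 15 cKO oocytes at 0 counts. At GV3h controls ran from 1.80 to 8.71 CPM (median 2.85) and cKO oocytes from 0 to 1.19 CPM (median 0), and these groups did not overlap. At MII controls ran from 1.21 to 32.8 CPM (median 8.21) and cKO eggs from 0 to 3.29 CPM (median 0.431). Overlap at GV and MII was limited to 1 and 6 cKO oocytes at or above the lowest control. Averages per female stayed separate between genotypes at all 3 stages, at MII with 1.51 CPM in cKO female V841 and 2.60 CPM in control female V896. The share of all genes separated in this way was not counted, so the separation is a description only.

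Kdr passed the filter on low counts at GV3h through its controls alone (8 of 8 control and 0 of 11 cKO libraries reached its cutoff), and at RiboMinus GV through 7 of 8 controls and 2 of 7 cKO libraries. Its differences there are descriptions without a test. The edgeR log2 fold change of Kdr was -4.07 ± 0.62 (SE) at GV3h. It was -3.18 ± 0.69 at MII, where 7 of 8 control and 6 of 15 cKO libraries reached the cutoff (SE, adjusted p = 0.00062; with counts summed per female, adjusted p = 0.021). At polyA GV Kdr fell under the filter on low counts, where 5 of 7 control and 1 of 15 cKO libraries reached the cutoff. Without that filter its change was -3.36 ± 0.76 (SE), which is likewise a description without a test. In RiboMinus GV, controls had 0.518 to 13.6 CPM (median 7.47) and cKO oocytes 0 to 5.93 CPM (median 0.328). The 2 oocytes of V1126 again held the 2 highest cKO values, 5.93 and 2.44 CPM, and the other 5 did not exceed 0.336 CPM. The edgeR change was -2.36 ± 0.96 (SE) with them and -5.46 without. Without female V1131 it was -1.18 and without V1126 -6.15.

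At RiboMinus MII the 4 cKO eggs had 0.809, 0.447, 0.467 and 0.839 CPM and the control eggs 0, 2.65 and 15.2 CPM. The single control at 0 counts lay under every cKO egg, and the difference of -3.14 ± 1.32 (SE, edgeR adjusted p = 0.10) did not pass. The difference was -3.27 with counts summed per female, where the control arm is 1 sample, and -0.996 without control egg 4 of V1145. The 3 control eggs came from 1 female. From GV to MII, polyA Kdr rose in controls by 1.85 ± 0.61 on the log2 scale (SE, edgeR adjusted p = 0.013). That call was lost with counts summed per female (adjusted p = 0.12) and without female V836, whose 2 eggs averaged 27.1 CPM (0.84, adjusted p = 0.25).

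Nrp1 was the most abundant of the 6 genes in control oocytes per kilobase of exon and was lower in cKO oocytes by a smaller factor. In polyA GV controls it ranged from 53.3 to 71.5 CPM (median 58.1) and in cKO oocytes from 12.0 to 61.2 CPM (median 38.2). At GV3h controls ranged from 50.1 to 75.3 CPM (median 60.4) and cKO oocytes from 12.3 to 50.5 CPM (median 23.0). At MII the groups overlapped over most of their range, with 112 to 217 CPM (median 171) in controls and 86.1 to 217 CPM (median 132) in cKO eggs. Only 1 of 11 cKO oocytes reached the lowest control at GV3h, 2 of 15 did at GV, and 12 of 15 did at MII.

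The edgeR log2 fold change of Nrp1 was -0.73 ± 0.23 at polyA GV (SE, adjusted p = 0.013), -1.30 ± 0.21 at GV3h (adjusted p = 2.2e-05) and -0.36 ± 0.14 at MII (adjusted p = 0.044). With counts summed per female the log2 values were -0.83, -1.31 and -0.46, with adjusted p of 0.20, 0.0021 and 0.12. The polyA GV call was also lost without female V889 (-0.64, adjusted p = 0.20), and that at MII with library totals in place of TMM (-0.26, adjusted p = 0.14) and when any 1 of 5 females was left out (up to adjusted p = 0.21). In RiboMinus GV the values were 26.9 to 45.4 CPM (median 32.1) in controls and 7.72 to 34.7 CPM (median 9.47) in cKO oocytes. The 2 oocytes of V1126 had 31.9 and 34.7 CPM, and the others at most 11.4 CPM.

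That RiboMinus GV difference was -1.13 ± 0.33 (SE, edgeR adjusted p = 0.014; adjusted p = 0.17 with counts summed per female) and -1.95 (adjusted p = 1e-07) without the 2 oocytes, but -0.50 (adjusted p = 0.49) without female V1131. At RiboMinus MII the cKO eggs had 47.5, 28.1, 25.3 and 30.8 CPM and the controls 76.2, 44.3 and 82.3 CPM, a difference of -0.97 ± 0.31 (SE, edgeR adjusted p = 0.036; adjusted p = 0.22 with counts summed per female). That call was lost in 6 of 9 leave-outs of a female or egg, with adjusted p up to 0.18. Counted over the 5 members beside Flt1, 1 was called at polyA GV (Nrp1; 40.4% of all genes were called), 1 at GV3h (Nrp1; 55.5%, leaving out Kdr, which is not tested there), 2 at MII (Kdr and Nrp1; 37.6%), 1 at RiboMinus GV (Nrp1; 37.6%) and 1 at RiboMinus MII (Nrp1; 23.7%). Of the 5, only Nrp1, and Kdr outside polyA GV, had enough counts to be tested, while the shares are of tested genes. With 23.7% to 55.5% of all genes called, a call of 1 or 2 members is no sign that the family stands out.

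**Figure D4:**
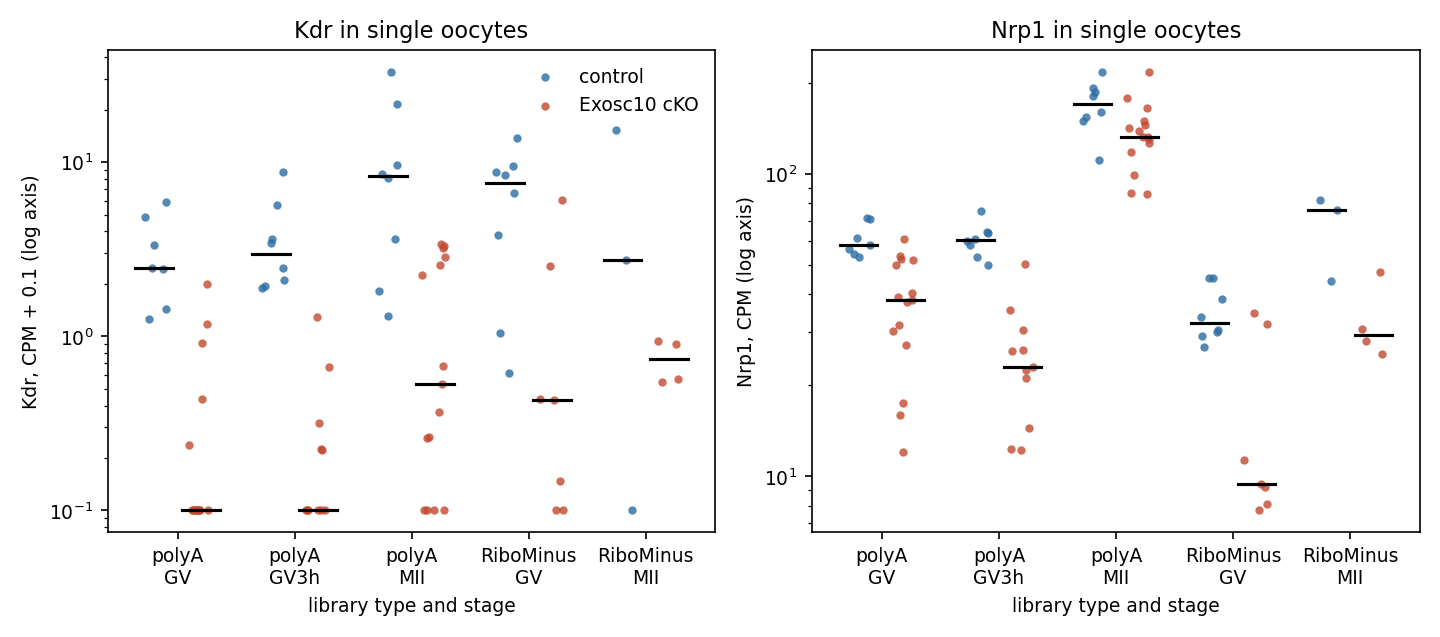
Kdr (left, CPM with 0.1 added so that oocytes at 0 can be drawn, log axis) and Nrp1 (right, CPM, log axis) in each oocyte by library type and stage. Points are oocytes and black lines are medians. Kdr medians of cKO oocytes are 0 at polyA GV and GV3h, and Nrp1 groups overlap most at polyA MII.

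In both genotypes of the polyA set Nrp1 rose between GV and MII, by 1.47 ± 0.13 in controls (SE, edgeR adjusted p = 1.2e-08, and 0.0010 from sums per female) and by 1.85 ± 0.19 in cKO oocytes (adjusted p = 6.5e-11; with counts summed per female, adjusted p = 0.0014). In RiboMinus controls it rose by 0.95 ± 0.20 (SE, edgeR adjusted p = 0.00092), with 1 female at MII, a call that was lost with all RiboMinus groups in one fit (adjusted p = 0.071). In RiboMinus cKO oocytes the change was 1.04 ± 0.45 (adjusted p = 0.13), and 1.86 (adjusted p = 0.00061) without the 2 oocytes of V1126. Nrp1 thus rose in controls of both library types, whereas Flt1 rose in polyA libraries.

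The 3 ligand genes were at or near the limit of detection in these oocytes. Vegfa, the main ligand of both receptors, had 0 counts in 69 of 86 libraries, more than 3 counts in 11, and at most 1.79 CPM. Vegfb, a ligand of Flt1 alone among the receptors, had 0 counts in 45 libraries, more than 3 in 10, and at most 0.776 CPM. Pgf had 0 counts in 82 libraries and no more than 2 counts in any. In a library with 0 counts, 3 counts would be 0.343 to 0.647 CPM in polyA and 0.0479 to 0.244 CPM in RiboMinus libraries, for counting error only, so lower levels cannot be seen. No genotype or stage change of a ligand was tested, and of the interactions only that of Vegfa in RiboMinus libraries (5.72 ± 3.04 SE, log2, edgeR adjusted p = 0.21), which did not pass. Of the other lymphatic and VEGF family genes, Flt4 (receptor 3) exceeded 3 counts in 10 libraries, Vegfc in 0, Vegfd in 5 and the co-receptor Nrp2 in 46 of 86.

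**Figure D5:**
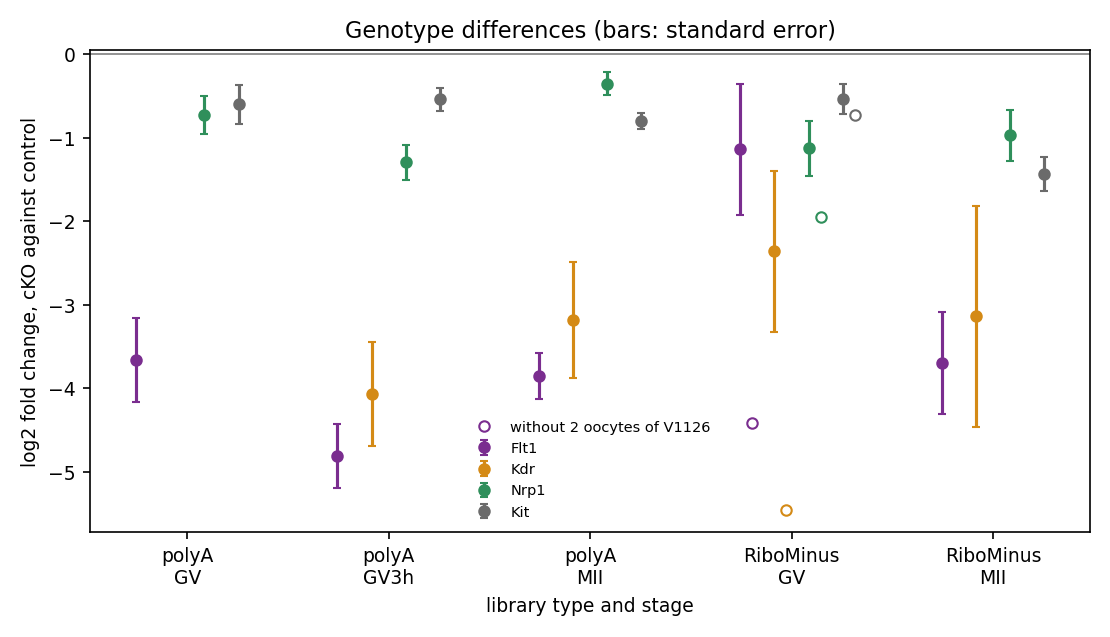
Log2 fold changes of cKO against control oocytes for Flt1, Kdr, Nrp1 and the related receptor Kit by library type and stage. Filled points are edgeR estimates with standard errors as bars, and open points at RiboMinus GV are estimates without the 2 oocytes of V1126. Kdr at polyA GV did not pass the filter on low counts. Without the 2 oocytes Flt1 moves from -1.14 to -4.42 and Kdr from -2.36 to -5.46.

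Set against other receptor tyrosine kinase genes by CPM per kilobase of exon, Flt1 ranked in the upper part of the list in control oocytes. Its median was 2.38 at polyA GV, 3.28 at GV3h and 7.57 at MII, rank 16, 14 and 9 of 54 receptor genes, and 2.77 at RiboMinus GV and 1.70 at RiboMinus MII, rank 14 and 16. In cKO oocytes the medians were 0.123, 0.0908, 0.744, 0.147 and 0.164, rank 29, 30, 21, 29 and 33. On the same scale control Kdr had medians of 0.262, 0.316 and 0.909 in the polyA stages, and Nrp1 had 5.94, 6.18 and 17.5. Musk and Kit led the receptor list in polyA controls, with 59.7 and 49.6 at GV. Kit is the receptor for stem cell factor from granulosa cells and acts in oocyte growth.

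The receptor tyrosine kinase list (51 genes without Flt1, Kdr and Flt4) was mostly lower among its called genes in polyA libraries. At polyA GV 2 rose and 10 fell among 32 tested, at GV3h 3 rose and 14 fell among 26, and at MII 1 rose and 9 fell among 28. In RiboMinus libraries 3 rose and 8 fell among 33 at GV, and 6 rose and 4 fell among 38 at MII. The genes that rose include Tyro3 in every comparison but polyA MII, and Flt3 at polyA GV. These passed the filter on low counts through their cKO libraries, so their place in these counts is no support. Over all genes the shares called higher and lower were 22% and 18.5%, 29.4% and 26.1%, 19% and 18.6%, 21.2% and 16.5%, and 13.9% and 9.78% in the same order. The list's median log2 fold change was -0.31, -0.53, -0.31, -0.15 and 0.31, against 0.06, 0.03, 0.04, 0.00 (0.00084584) and 0.13 over all genes. With counts summed per female 0, 20, 5, 0 and 4 genes of the list were called, where the sums called 1, 6681, 2522, 3 and 1703 genes in all. Without the 2 oocytes of V1126, 6 rose and 14 fell among 35 at RiboMinus GV, with a median of -0.40, and 8718 of all 16021 genes were called. Leaving out 1 female moved the list's count, and that of all genes with it, at polyA GV from 5 (without V856) to 19 (without V888), at MII to 5 (without V897), and at RiboMinus GV from 0 (without V1131) to 19 (without V1126). At RiboMinus MII it was 5 without egg 4 of V1145. Over all genes 4759 of 15522 were called without V856, 6967 of 13855 without V888, 2325 of 12601 without V897, 103 of 16326 without V1131, 8586 of 16292 without V1126 and 2439 of 18472 without that egg.

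Kit was called lower in all 5 comparisons with the oocyte as replicate, and in 3 of them with counts summed per female, where adjusted p was 0.56 at polyA GV and 0.13 at RiboMinus GV. Its log2 fold change was -0.60 ± 0.23 (SE, edgeR adjusted p = 0.039) at polyA GV, with ranges of 367 to 725 CPM in controls and 165 to 624.5 CPM in cKO oocytes. It was -0.54, -0.80, -0.54 and -1.44 in the other comparisons, with edgeR adjusted p of 0.0023, 1.5e-07, 0.026 and 0.00058. The polyA GV value rested on female V888, without which it was 0.07, and was -0.36 (adjusted p = 0.35) without V856. The RiboMinus GV value was -0.73 without the 2 oocytes of V1126, and its call was lost in 3 of 4 leave-outs of a female, with adjusted p up to 0.30. Egfr, the epidermal growth factor receptor, fell in 4 comparisons (lowest -1.86, at RiboMinus MII) and measured 0.18 (adjusted p = 0.52) at polyA MII, with 2 calls left from counts summed per female. At RiboMinus GV it was -1.12, and -2.12 without the 2 oocytes. Insr, the insulin receptor, fell in 3, with 1 call left from counts summed per female. Tyro3, a receptor of the TAM family that binds Gas6 and protein S, passed the filter on low counts in 4 comparisons through its cKO libraries, with controls at 0 to 1.93 CPM, and is described without a test. At polyA GV3h its cKO oocytes had 4.40 to 42.4 CPM and its controls 0 to 1.03 CPM. Ddr1, Musk and Epha4 also met the naming rule, each lower in 3 comparisons.

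The list of 58 other VEGF pathway genes (adaptors, the MAP kinase, PI3 kinase, calcineurin and migration arms, and oxygen-sensing regulators) was called at shares on either side of those of all genes, which were 40.4%, 55.5%, 37.6%, 37.6% and 23.7%. At polyA GV 10 rose and 6 fell of 47 tested (34.0% called), at GV3h 13 rose and 13 fell among 46 (56.5%), and at MII 8 rose and 6 fell among 44 (31.8%). In RiboMinus libraries 13 rose and 5 fell among 53 (34.0%) at GV, and 12 rose and 3 fell among 54 (27.8%) at MII. The genes that rose at polyA GV and GV3h include Vhl, which passed the filter on low counts there through its cKO libraries. Its place in these 2 counts is no support. The list's median log2 fold change was -0.03, 0.04, 0.12, 0.08 and 0.34 in that order, against 0.06, 0.03, 0.04, 0.00 (0.00084584) and 0.13 over all genes. With counts summed per female 0, 19, 10, 0 and 1 were called, against the 1, 6681, 2522, 3 and 1703 of all genes given above. Without the 2 oocytes of V1126 16 rose and 12 fell among 53 at RiboMinus GV, where 8718 of 16021 genes were called. Single females or eggs moved these counts: without V889 8 and without V888 26 were called at polyA GV, without V897 9 at MII, without V1131 0 and without V1126 26 at RiboMinus GV, and without egg 2 of V1145 6 at RiboMinus MII. The counts over all genes moved with them: 2835 of 16009 without V889, 2328 of 18452 without that egg, and as given for the receptor list without the other females.

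Pik3r1, the regulatory subunit of PI3 kinase, fell in all 5 comparisons, by log2 values between -0.72 and -1.33, and in 2 with counts summed per female. Its RiboMinus GV value was -0.72, and -1.07 without the 2 oocytes of V1126. In polyA GV controls it measured 215 to 254 CPM and in cKO oocytes 66.6 to 180 CPM. Hif1an, which hydroxylates hypoxia-inducible factor and restrains it, rose in all 5, by 0.72 to 1.27, and in 2 with counts summed per female. At RiboMinus GV it was 1.11, and 1.37 without the 2 oocytes. Its polyA GV values were 43.8 to 87.4 CPM in controls and 80.9 to 156 CPM in cKO oocytes. Vhl, the adaptor that marks hypoxia-inducible factor for degradation, passed the filter on low counts through its cKO libraries at polyA GV (12 of 15 cKO and 3 of 7 control libraries reached the cutoff) and GV3h (11 of 11 and 3 of 8), and is described there without a test. At GV3h it measured 0.335 to 3.50 CPM in controls and 1.53 to 35.4 CPM in cKO oocytes. At RiboMinus GV Vhl rose by 3.32 ± 0.63 on the log2 scale (SE, edgeR adjusted p = 0.0015; adjusted p = 0.14 with counts summed per female; 3.73 without the 2 oocytes of V1126). Ptk2 (focal adhesion kinase) fell in 4 comparisons, and Pxn, its partner at adhesions, fell in 3. Sos1, Nfatc2 and Ppp3cb rose in 3 each. With counts summed per female 1 call was left for each of Ptk2, Pxn, Sos1, Nfatc2 and Ppp3cb, and for Musk and Epha4 of the receptor list, and 2 for Ddr1. Of 48 calls of the genes named from both lists, leaving out 6 of Tyro3 and Vhl that 1 group carried past the filter, 19 passed with counts summed per female and 21 passed with each female or oocyte left out in turn. Sos1, Ppp3cb, Ptk2, Egfr, Insr and Ddr1 overlap annotated genes on the opposite strand, and the strand setting of the counting is not given in the sources used here, so their reads are uncertain.

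Genes beside Flt1 on chromosome 5 did not share its difference in size. Of the 5 RefSeq genes on each side, 4 were tested in at least 1 comparison. Pan3, a subunit of a poly(A) nuclease complex whose gene ends 13103 bases from Flt1, fell by 0.46 ± 0.16 (SE, edgeR adjusted p = 0.027), 0.37 and 0.72 on the log2 scale in the 3 polyA stages, with adjusted p of 0.0038 and 5.9e-06 in the latter. The polyA GV call was lost with counts summed per female (adjusted p = 0.53). Pan3 measured -0.06 (-0.11 without the 2 oocytes of V1126) and 0.16 in RiboMinus GV and MII without passing. Pomp, a proteasome assembly factor 134190 bases away, measured -0.02, 0.16 and 0.06 (0.20 without the 2 oocytes) at polyA GV, GV3h and RiboMinus GV without passing, rose by 1.18 at polyA MII (edgeR adjusted p = 1e-05) and fell by 0.92 at RiboMinus MII (adjusted p = 0.027, but 0.23 with counts summed per female). Slc46a3 and D5Ertd605e passed the filter on low counts at RiboMinus MII only, through their cKO eggs (4 of 4 and 3 of 4 reached the cutoff, against 0 of 3 controls), and are named without a test. Flt3, a related receptor tyrosine kinase gene chosen after its values were seen, is described without a test: at polyA GV it measured 0.668 to 3.56 CPM in cKO oocytes and 0 to 1.59 CPM in controls, and at RiboMinus GV 0.94 to 3.99 against 0.358 to 2.69 CPM. Its levels overlapped between genotypes in both.

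The genes whose log2 CPM ran most like Flt1 across the 64 polyA oocytes, among 11832 ranked, were Tnrc6b (r = 0.90), Tbl1xr1 (0.90), C86187 (0.89), Gm31941 (0.88) and Pard6g (0.88). In the 22 RiboMinus oocytes their r with Flt1 was 0.79, 0.94, 0.84, 0.62 and 0.87. Gm31941 lies inside C86187 on the opposite strand, and these 2 rows may share reads. Kdr had r = 0.83 in polyA and 0.65 in RiboMinus oocytes, and Nrp1 had 0.66 in both, as rank 828. These correlations follow genotype and stage, which all genes in an oocyte share, and are given as a description. After subtracting each group's mean the highest were Gm44796 (0.50), Alpl (0.49), Tbc1d32 (0.48), Actn1 (0.47) and Rhbdd2 (0.47), and Kdr and Nrp1 had 0.39 and 0.32. In RiboMinus oocytes Nrp1 then had 0.88 and Kdr 0.39, with the 2 oocytes of V1126 among them.

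The oocyte origin of these libraries was checked with markers. The 12 oocyte markers summed to at least 22111 CPM in polyA and 9951 CPM in RiboMinus libraries. Endothelial cells, in which Flt1 and Kdr are best known, were followed with 10 markers. Over the 86 libraries Pecam1 was at 0 counts in none, with a median of 83.1 CPM and at most 196 CPM, and made up most of the list's sum. Tek was at 0 in none (median 12.8, at most 25.4 CPM) and Tie1 in 10 (median 2.90, at most 17.6 CPM). Eng was at 0 in 23 (at most 3.15 CPM), Egfl7 in 43 (at most 1.69 CPM) and Cldn5 in 45 (at most 6.15 CPM). Robo4 was at 0 in 74, Cdh5 in 81, Esam in 83 and Emcn in 84, with at most 1.34 CPM in any library. The endothelial list was thus mixed, from genes found in every library to genes at 0 in most. The list's sum was 65.6 to 136 CPM in polyA GV cKO oocytes and 78.1 to 104 CPM in their controls, 60.0 to 124 against 73.2 to 107 CPM at GV3h, and 97.1 to 196 against 104 to 202 CPM at MII. In RiboMinus libraries it was 73.0 to 126 against 73.1 to 98.9 CPM at GV and 95.0 to 122 against 47.8 to 53.9 CPM at MII. The 12 granulosa and cumulus markers summed to 58.5 to 92.9 CPM in polyA GV cKO oocytes and 76.8 to 103 CPM in controls, led by Cyp19a1 and Nr5a2. They summed to 48.3 to 116 against 64.2 to 88.6 CPM at GV3h, 84.7 to 145 against 90.3 to 161 CPM at MII, and 75.7 to 207 against 92.9 to 145 CPM at RiboMinus GV. At RiboMinus MII the sums did not overlap for either list: granulosa and cumulus markers were lower in cKO eggs, at 72.7 to 103 against 142 to 164 CPM, and endothelial markers higher. The part of these markers in the differences of Flt1, Kdr and Nrp1 was not tested.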

How the data were processed

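Single mouse oocytes were sequenced as 64 polyA and 22 RiboMinus libraries, and 22 ribosomal RNA libraries were not used here. The deposited values are raw read counts per gene, which the authors made with cutadapt 2.5, FastQC 0.11.8, STAR 2.7.2a, SAMtools 1.9 and HTSeq 0.9.1 on mm10, per the submitters' processing notes, which also name R 3.5.1 and DESeq2 1.24.0. The annotation release, strand setting and handling of duplicate reads are not given in the sources used here. Reads assigned to no gene were left out of totals (5.855% to 14.17% in the polyA groups, 8.338% to 12.4% in RiboMinus).

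Counts were tested with edgeR 4.0.16 (quasi-likelihood, filterByExpr, TMM, R 4.3.3), each comparison with its own groups and the oocyte as replicate, and the scripts were tested on simulated data. CPM were scaled by TMM separately in polyA and RiboMinus libraries, so levels are compared only within a library type. Alternatives were DESeq2 1.42.0, voom in limma 3.58.1 with a random effect of female, other scalings and filters, counts summed per female, and leaving out each female or oocyte. Leaving out 2 oocytes of V1126 and the comparison of library types were added after seeing the data. Likeness was Pearson's r of log2(CPM + 1) among genes tested in all 5 genotype comparisons.

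The members and lists were chosen with earlier results of these data known. Of the VEGF pathway and receptor lists, genes called in at least 3 of 5 genotype comparisons with the same sign were named, up to 8 per list by median absolute log2 fold change, with the 5 genes most like Flt1 by each measure and the tested genes among the 5 nearest on each side. Flt3 was chosen after its values were seen.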

Additional observations from a re-analysis of the deposited data

Results flagged for a closer look

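Kdr in oocyte 2 of female V1126 (RiboMinus GV cKO) was 5.93 CPM, apart from the other oocytes of its group, of which the next was 2.44 CPM. Of 18 groups of 4 to 10 oocytes examined for Flt1, Kdr and Nrp1 this was 1 that stood apart, and chance alone gives about 1 in 20. This is also 1 of the 2 oocytes that lay nearer to controls over all genes.

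The change from GV to MII in control oocytes differed between library types for Flt1, by 2.56 ± 0.48 (SE, log2, edgeR adjusted p = 4e-05), and for Nrp1, by 0.68 ± 0.24 (SE, edgeR adjusted p = 0.021). In both the change was more positive in polyA libraries. That of Nrp1 did not pass with DESeq2 (0.55, adjusted p = 0.0501), library totals (0.19, adjusted p = 0.52) or counts summed per female (adjusted p = 0.13).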

How the results depend on the processing

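Of 811 values recomputed under alternatives other than leaving out 1 female or oocyte, 679 kept direction and, where tested, side of the threshold, or for untested values and counts stayed close to the reported value, as did 429 of 562 with 1 left out. Where values moved, the cause was not tested unless the alternative tests fewer samples or genes. Members called by genotype came to 0 with counts summed per female and with limma voom at polyA GV, and to 2 with no filter and with all groups in one fit. At GV3h 2 were called counting Kdr, and 1 among genes with a mean of at least 50 counts. At MII 1 was called with DESeq2 size factors, library totals, counts summed per female, one fit and the filter at a mean of 50. At RiboMinus GV 2 were called without the 2 oocytes of V1126 and with no filter, and 0 with counts summed per female. Kdr passed the filter through its controls at GV3h and RiboMinus GV, and entered the polyA GV count with no filter and in one fit. Its place in these counts is no support. At RiboMinus MII 2 were called with DESeq2 and with no filter, and 0 with limma voom and in one fit. Leaving out 1 female or oocyte gave 1 to 2, 1 to 2, 0 to 2 and 0 to 1 at polyA GV, MII, RiboMinus GV and RiboMinus MII.

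VEGF pathway genes called were 0, 0 and 1 with counts summed per female at polyA GV, RiboMinus GV and RiboMinus MII, 5 and 8 with limma voom at polyA GV and RiboMinus GV, 24 in one fit at MII, and 28 at RiboMinus GV without the 2 oocytes. With 1 female or oocyte left out they were 8 to 26, 9 to 15, 0 to 26 and 6 to 13 at polyA GV, MII, RiboMinus GV and RiboMinus MII. Receptor list genes called at polyA GV were 2 with limma voom, and 7 with library totals or with the filter at a mean of 50. Flt1 between genotypes at RiboMinus GV was -4.42 without the 2 oocytes, -3.10 with limma voom, and -4.33 to -0.0022 with 1 left out. Kit at polyA GV ranged from -1.09 to 0.075.

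The Flt1 change from GV to MII in polyA cKO oocytes was 1.95 with counts summed per female and no longer passed. In RiboMinus cKO oocytes it was 0.33 without the 2 oocytes, -2.94 in one fit (adjusted p = 0.030), and -4.09 to 0.23 with 1 left out. In RiboMinus controls it ranged from -1.07 to 0.044. The interaction of stage and genotype was 0.27 in polyA with limma voom (-0.49 to 0.16 with 1 left out) and 0.65 in RiboMinus without the 2 oocytes (-3.71 to 0.57 with 1 left out). Kdr from GV to MII in RiboMinus libraries was 0.061 in controls with counts summed per female (-2.30 to 1.00 with 1 left out) and 1.43 in cKO oocytes with limma voom. No paired analysis was possible because each female gave oocytes of 1 genotype and 1 stage, so no female links the groups compared. Oocyte numbers start again in each female and pair nothing. Low counts limit Kdr, and keep the ligands from every genotype and stage comparison.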
